A study of Mus musculus with 8 samples.

Results

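Deubiquitinases are proteases that take ubiquitin off proteins, or cut chains of it, and so act against ubiquitin ligases such as *Rnf146*. The ones described here were taken by symbol: every gene whose name starts with Usp and a digit, with Otud or Otub, or with Uchl and a digit. This gave 58 of the 15039 genes measured. Of these, 45 belong to the ubiquitin-specific proteases (USP), 9 to the ovarian tumor proteases (OTU) and 3 to the ubiquitin C-terminal hydrolases (UCH). The last, *Usp6nl*, carries the symbol by name only, since it encodes a GTPase-activating protein of Rab proteins. The rule matches 70 protein-coding symbols in GENCODE vM39, and the 12 others, *Usp18*, *Usp44*, *Usp50* and *Usp9y* among them, were not analysed here.

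The libraries were made from the dissected prefrontal cortex (PFC) of male wild-type C57BL/6NCrljOri mice, 4 that received AAV2/1-hsyn-RNF146-eGFP and 4 that received AAV2/1-hsyn-eGFP. The virus was injected on both sides at 6 weeks of age and the tissue was taken 4 weeks later. The hsyn promoter drives expression in neurons, while the dissected tissue holds all cell types, infected or not. Both groups therefore carried a virus with eGFP, and the Rnf146 mice had been checked for overexpression and for their social behavior before sequencing. The labels number the libraries 1 to 4 in each group without saying what a shared number stands for, and where libraries do not come from separate animals the p-values measure technical spread.

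RNF146 is a RING-type ligase that recognizes proteins tagged with poly(ADP-ribose) by tankyrase, AXIN among them, and marks them for the proteasome. Its activity thereby raises Wnt/β-catenin signaling. Several deubiquitinases act on the same pathway, on AXIN, on β-catenin, on Dishevelled or on Frizzled receptors, and others control receptor trafficking at synapses, histone marks or mitochondrial turnover. In neurons, UCHL1 is among the most abundant soluble proteins. The members were thus read for the question whether their transcripts differed when the ligase was overexpressed.

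The deposited values are on a log2 scale and ran from 7.86 to 18.79 over all genes. They had been centred within same-numbered pairs, an eGFP and an Rnf146 library each, so that every gene holds 4 independent differences, Rnf146 minus eGFP. With equal pair sums, the groups of a gene are apart whenever its 4 differences share a sign, as 10.4% of all genes did upward and 10.2% downward. Whether the libraries overlapped before centring is unknown, and separation is no evidence beside the signs. The depth of the libraries is unknown, and values near the bottom of the scale understate a change. Values are not per length, so levels of different genes are not compared. Called genes are those whose p-value, from limma with the pair as a replicate block and adjusted over the whole table, did not exceed 0.1. In bulk tissue, fewer cells of a type and less RNA per cell cannot be told apart.

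*Rnf146* itself stood at 10.35, 10.50, 10.43 and 10.47 in the eGFP libraries 1 to 4 and at 13.17, 13.01, 13.09 and 13.04 in the Rnf146 libraries. It was higher in every pair. The difference was 2.64 ± 0.13 (SD, n = 4 pairs, adjusted p = 3.18e-07, limma), with reads from the vector and from the mouse gene counted together. Marker genes of several cell types also differed between the groups. Of the 7 astrocyte and 5 endothelial markers none was called by limma or had an unadjusted p below 0.05. The mean over the 12 markers of cortical excitatory neurons was lower in every pair, with a difference of -0.23 ± 0.13 (SD, n = 4 pairs), and 8 of the 12 were lower in all 4 pairs. By limma 3 of them were called lower, beside 1.25% of all genes, and 9 had an unadjusted p below 0.05, beside 12.4%. The 6 septal and basal forebrain markers analysed were each higher in every pair. The means over the striatal and the oligodendrocyte markers were higher in pairs 2 to 4. All 12 striatal markers had a mean above 0, and 5 were higher in all 4 pairs. Of the 12, 1 was called by limma and 11 had an unadjusted p below 0.05. All 11 oligodendrocyte markers had an unadjusted p below 0.05, but none was called by limma or higher in all pairs. All 7 microglial markers had a mean below 0 and 5 were lower in all pairs. None of them was called by limma, and 3 had an unadjusted p below 0.05, beside 12.4% of all genes. A list of 8 markers of GABAergic interneurons included *Gad1*, *Gad2* and *Slc32a1*, which are not particular to interneurons. Of the 8, 3 were called higher, beside 1.25% of all genes called in either direction. The other 5 had a mean below 0, and the median of the list was -0.04.

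*Usp29* was the only member called. It is an imprinted gene expressed from the paternal allele and encodes a deubiquitinase known to act on p53 and on claspin, a checkpoint protein. It lies head to head with *Peg3*, another paternally expressed gene, at chr7:6733577-6970218 on the forward strand of GRCm39, while *Peg3* runs on the reverse strand at chr7:6706882-6733468. The 2 starts lie closer together in GENCODE than in RefSeq. The bases between the RefSeq first bases of the 2 genes are shown because both RefSeq transcripts start at their edges. They cover chr7:6730420-6730582 of GRCm38.p6 (forward strand, RefSeq), with the *Peg3* start on the left and the *Usp29* start on the right, and capitals mark CCAAT boxes.
Usp29-Peg3 interval: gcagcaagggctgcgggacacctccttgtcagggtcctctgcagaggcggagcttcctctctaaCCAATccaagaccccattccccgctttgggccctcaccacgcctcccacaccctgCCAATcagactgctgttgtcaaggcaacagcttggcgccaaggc
The interval is 163 bases long with 62.0% G and C, and it holds 2 CCAAT boxes on the forward strand.

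In the 300-base RefSeq window around the *Usp29* start, the cAMP response element, TGACGTCA, began at base 8 of the transcript. That palindrome was in 1.79% of all 32851 such windows and in 2 of the 50 windows found for 46 of the 58 members, those of *Usp29* and *Otud7a*. CCAAT, searched on both strands, was in 12 of the 50 member windows and in 37.4% of all windows. The letters CTTTGAA or CTTTGAT, a form of the TCF/LEF site through which β-catenin acts, were in 3 member windows, of *Uchl3*, *Usp19* and *Usp40*, and in 8.65% of all windows. The *Usp29* window did not hold them. The *Peg3* window shares 263 of its 300 bases with that of *Usp29*. The cAMP response element lies to the right of the interval printed and so does not overlap the CCAAT boxes in it.

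*Usp29* stood at 10.76, 10.72, 10.86 and 10.70 in the eGFP libraries and at 11.23, 11.27, 11.13 and 11.29 in the Rnf146 libraries. It was higher in all 4 pairs. The pair differences were 0.48, 0.55, 0.27 and 0.59, a mean of 0.47 ± 0.15 (SD, n = 4 pairs) with a 95% interval of 0.33 to 0.61 and an adjusted p of 0.0183 (limma). By mean difference *Usp29* ranked at place 59 of the 15039 genes. The call was lost without pair 2 (adjusted p = 0.102) and without pair 4 (adjusted p = 0.156), with differences of 0.43 or more in all fits that left out a pair.

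The neighbors of *Usp29* in the imprinted cluster were looked at after the values were seen. *Peg3*, which encodes a zinc finger protein, stood at 13.47, 13.45, 13.55 and 13.46 in the eGFP libraries and at 13.79, 13.80, 13.71 and 13.79 in the Rnf146 libraries, higher in all 4 pairs. Its difference was 0.29 ± 0.09 (SD, n = 4 pairs, adjusted p = 0.0556, limma), and its smallest pair difference, 0.16, was in pair 3, as for *Usp29*. The *Peg3* call was lost without pair 2 (adjusted p = 0.266), without pair 4 (adjusted p = 0.294) and with a score of striatal and septal markers as a covariate (adjusted p = 0.827). *Zim1*, a zinc finger gene expressed from the maternal allele, had pair differences of 0.15, 0.45, -0.01 and 0.75 and was not called (adjusted p = 0.263). *Usp29* shares its span with *Zim3* on the opposite strand and with further annotated entries on both strands, *Mir3099* among those on its own strand. The library kit was stranded, but the strand setting of the counting is not given in the sources used here.

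**Figure D1:**
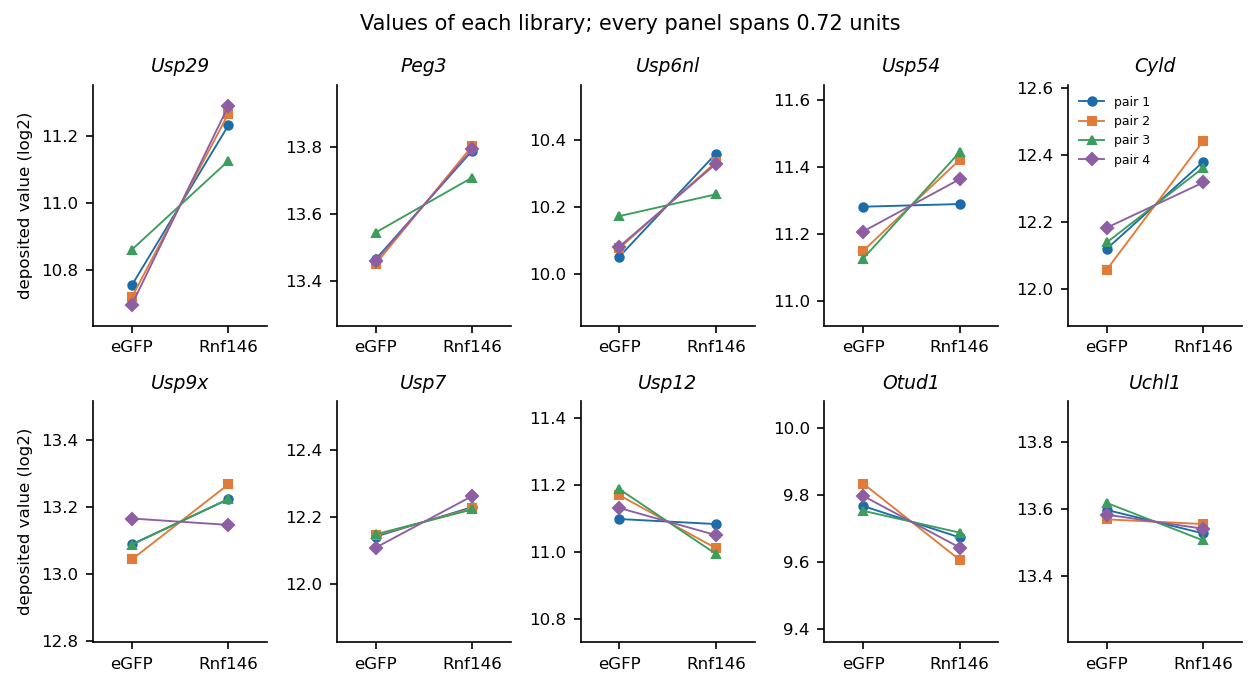
Values of each library on the deposited log2 scale (y axis) for 10 genes, with eGFP and Rnf146 libraries of a pair joined by a line and every panel spanning 0.72 units. The lines of *Usp29* and *Peg3* climb in all pairs and are flattest in pair 3, while those of *Uchl1* and *Usp7* span little of the panel.

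The markers that differed between the groups moved with *Usp29* in part. All 6 septal and basal forebrain markers analysed, of 10 listed, were called higher, and the others were not analysed here. Their mean difference was 0.53, 0.73, 0.33 and 0.61 in pairs 1 to 4, lowest in pair 3 as for *Usp29*, and their summed value was 55.7 to 56.9 in the eGFP libraries and 58.8 to 60.1 in the Rnf146 libraries. The 12 striatal markers differed by -0.06, 1.26, 0.69 and 0.29 in the same pairs, and their summed value was 115.9 to 123.8 in the eGFP libraries and 123.1 to 131.0 in the Rnf146 libraries. With a score of 18 striatal and septal markers as a covariate beside the block, the *Usp29* difference was 0.45 and its adjusted p 0.710, in a fit that called 3 of the 15039 genes.

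**Figure D2:**
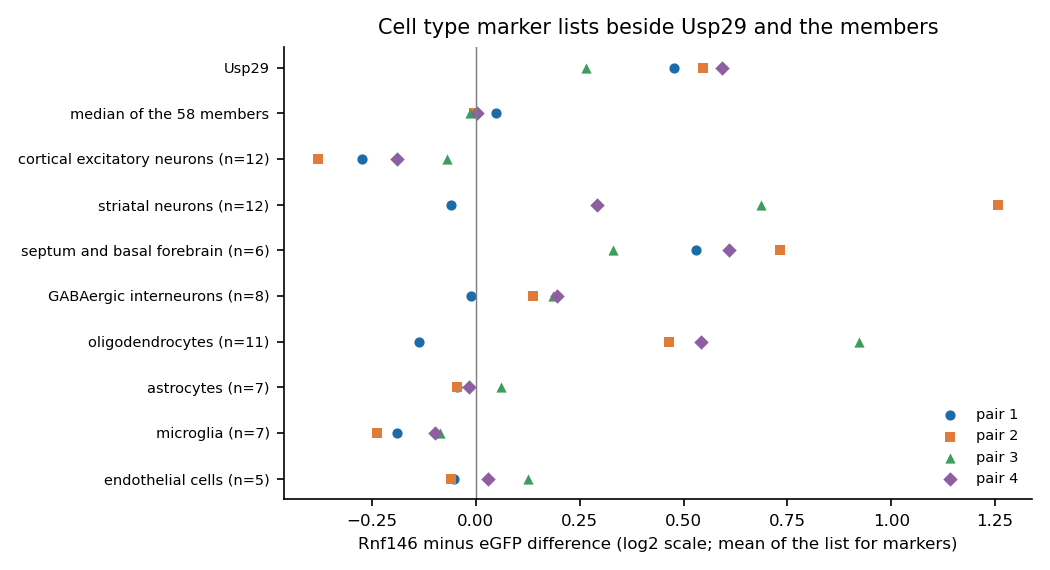
Rnf146 minus eGFP differences on the log2 scale (x axis) in each pair, for *Usp29*, for the median of the 58 members and for the mean of each cell type marker list. *Usp29* and the septal list lie above 0 in all 4 pairs, striatal and oligodendrocyte lists spread widely, and the median of the members stays between -0.015 and 0.049.

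The other members moved little. With 1 call, the members had a called share of 1.72%, beside 1.25% of all genes. Their median difference was 0.013, with pair medians of 0.049, -0.0041, -0.015 and 0.0032, and the median over all genes was 0.00086. The absolute difference was under 0.1 in 49 members (84.5%) and in 79.4% of all genes. Of the 57 members not called, 38 had a 95% interval within 0.2 of 0, and the widest bounds were -0.34 for *Otub2* and 0.34 for *Usp6nl*. An unadjusted p below 0.05 was found for 8 members (13.8%), beside 12.4% of all genes.

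Taken by direction, 5 members were higher in all 4 pairs (8.62%, beside 10.4% of all genes) and 4 were lower in all 4 (6.90%, beside 10.2%). Those higher were *Usp29*, *Usp6nl*, *Usp54*, *Usp7* and *Usp40*, and those lower were *Otud1*, *Otud3*, *Usp12* and *Uchl1*. The other 49 were mixed. Mean differences were above 0 for 33 members and below 0 for 25. In pair 1, 36 members were higher in the Rnf146 library, and 28, 28 and 29 were so in pairs 2 to 4.

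**Figure D3:**
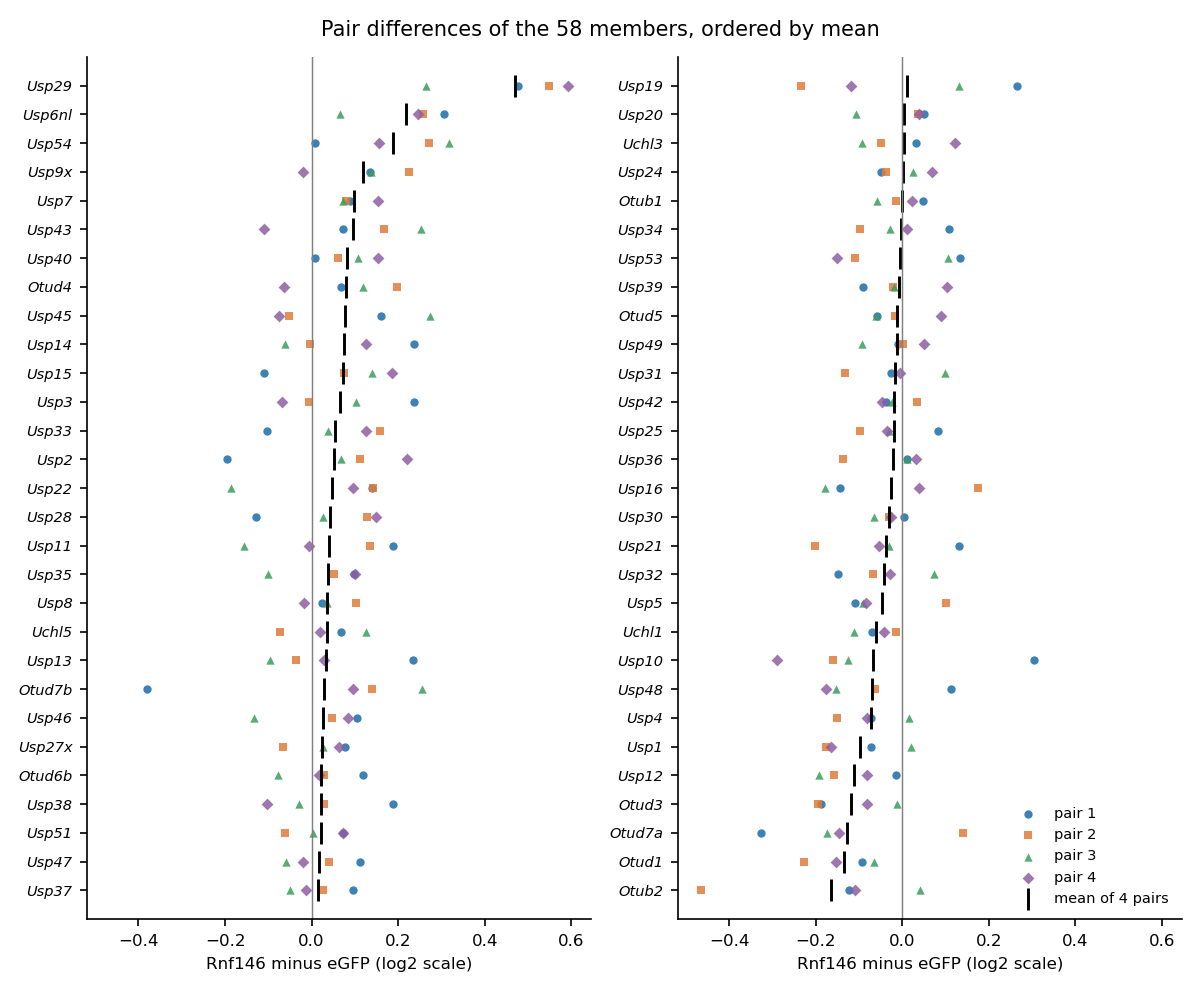
Pair differences, Rnf146 minus eGFP on the log2 scale (x axis), of all 58 members ordered by their mean, which is marked by a bar. *Usp29* stands alone at the top with a mean of 0.47, and the means of the other members lie between -0.16 and 0.22.

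Without the replicate block, limma called 10 members (17.2%), beside 21.5% of all genes. These were *Usp29*, *Usp6nl*, *Usp54*, *Usp7*, *Usp9x* and *Usp40*, higher, and *Otud1*, *Otud3*, *Usp12* and *Usp1*, lower. That fit treats the 8 centred values as independent and counts 6 residual degrees of freedom in place of 3.

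**Figure D4:**
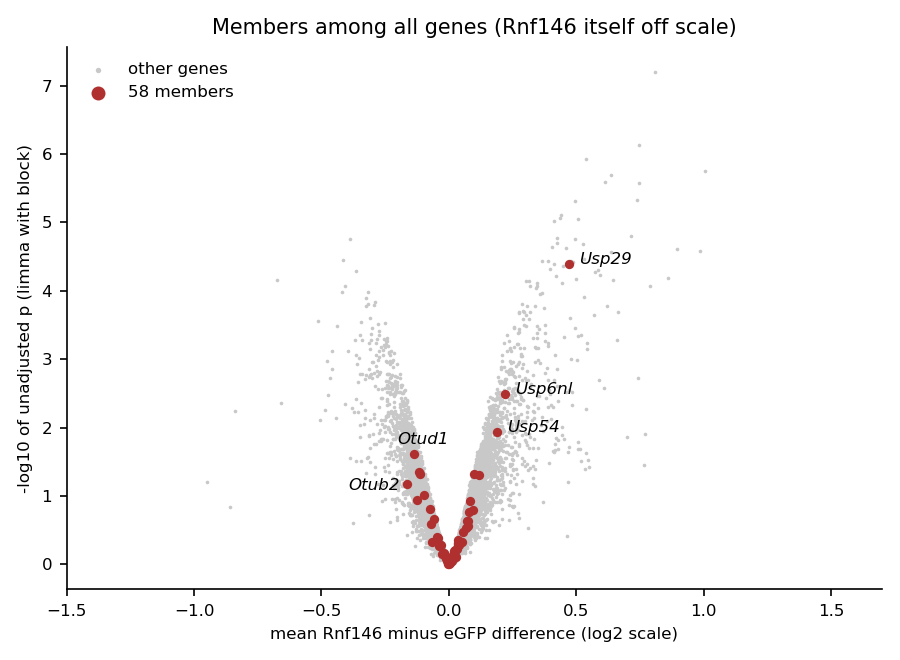
Mean Rnf146 minus eGFP difference on the log2 scale (x axis) against −log10 of the unadjusted p of limma with the replicate block (y axis), for all genes in grey and the 58 members in red, with *Rnf146* left off the scale. *Usp29* is the only member in the upper part of the plot, followed by *Usp6nl* and *Usp54*.

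The 11 members known to regulate Wnt signaling had 7 mean differences above 0 and 4 below, with a median of 0.018. None was called by limma with the block, and 2, *Usp7* and *Usp9x*, had an unadjusted p below 0.05, beside 12.4% of all genes. *Usp7*, which acts on p53 and MDM2 and also on AXIN and β-catenin, stood at 12.14, 12.14, 12.15 and 12.11 in the eGFP libraries and at 12.23, 12.22, 12.22 and 12.26 in the Rnf146 libraries. All 4 differences were positive, with a mean of 0.10 ± 0.04 (SD, n = 4 pairs) and a 95% interval of 0.0012 to 0.20 (adjusted p = 0.397 with the block and 0.0174 without it). *Usp9x*, an X-linked deubiquitinase of β-catenin and of synaptic scaffolds whose transcript can share reads with its Y-linked copy *Usp9y*, had pair differences of 0.14, 0.22, 0.14 and -0.02. Pair 4 went against the others, and the mean of 0.12 ± 0.10 had an adjusted p of 0.400.

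Among the other Wnt regulators, the mean difference was -0.07 for *Usp4*, which acts on β-catenin and on TGF-β receptors, and 0.04 for *Usp8*, which works on endosomes and on Frizzled. It was 0.07 both for *Usp14*, the proteasome-bound deubiquitinase that also acts on Dishevelled, and for *Usp15*, a relative of *Usp4*. *Usp34*, a very large enzyme that stabilizes AXIN, had -0.0017, and *Usp25*, which acts on tankyrases, had -0.02. *Usp47*, a β-catenin deubiquitinase related to *Usp7*, had 0.02, and *Usp20*, which acts on β-catenin and on β-adrenergic receptors, had 0.0043. Their adjusted p-values ran from 0.572 to 0.994 (limma). *Usp10*, which trims ubiquitin from p53 and AXIN, had pair differences of 0.31, -0.16, -0.13 and -0.29, so that pair 1 went against the others, and its mean was -0.07 ± 0.26 (SD, n = 4 pairs).

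The list of members with no or doubtful peptidase activity had the highest median of the role lists, 0.092 over 4 genes, and -0.0051 with *Usp6nl* left out. *Usp6nl* stood at 10.05, 10.08, 10.17 and 10.08 in the eGFP libraries and at 10.36, 10.33, 10.24 and 10.33 in the Rnf146 libraries, higher in all 4 pairs. Its difference was 0.22 ± 0.11 (SD, n = 4 pairs) with a 95% interval of 0.10 to 0.34, smallest in pair 3, and was not called with the block (adjusted p = 0.144, and 0.00728 without it). *Usp54*, long classed as inactive, stood at 11.28, 11.15, 11.13 and 11.21 in the eGFP libraries and at 11.29, 11.42, 11.44 and 11.36 in the Rnf146 libraries. All 4 differences were positive, but pair 1 differed by only 0.0085, and the mean was 0.19 ± 0.14 (SD, n = 4 pairs, adjusted p = 0.240). Without pair 1 the *Usp54* difference was 0.25 and called (adjusted p = 0.0766, limma), in a fit that called 421 genes, beside 188 with all pairs. It was not called without pair 2, 3 or 4 (adjusted p = 0.611, 0.448 and 0.497, limma). With the score of striatal and septal markers as a covariate it was 0.045 and not called. *Usp53*, a tight junction protein, had a mean of -0.0051, and *Usp39*, a splicing factor without protease activity, had -0.0071.

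In the synapse and receptor trafficking list, 8 of 11 mean differences were above 0 and 3 below, 2 genes were lower in all pairs and none was called by limma with the block, with 2 at an unadjusted p below 0.05. Over all genes, 10.2% were lower in all pairs and 12.4% had such a p. *Usp12*, which with *Usp46* removes ubiquitin from histones, and the latter from AMPA receptor subunits, stood at 11.10, 11.17, 11.19 and 11.13 in the eGFP libraries and at 11.08, 11.01, 10.99 and 11.05 in the Rnf146 libraries. All 4 differences were negative, but pair 1 differed by only -0.02, and the mean was -0.11 ± 0.08 (SD, n = 4 pairs, adjusted p = 0.395). Its close relative *Usp46* had pair differences of 0.11, 0.05, -0.13 and 0.08 with a mean of 0.03 (adjusted p = 0.893). *Otud7a*, a gene of neurons whose loss affects dendritic spines, had -0.33, 0.14, -0.17 and -0.15, with pair 2 against the others.

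The 3 UCH enzymes, small cysteine proteases that release short adducts from ubiquitin, had mean differences of -0.06 for *Uchl1*, 0.0030 for *Uchl3* and 0.03 for the proteasome-bound *Uchl5*. *Uchl1* stood at 13.60, 13.57, 13.62 and 13.58 in the eGFP libraries and at 13.53, 13.55, 13.51 and 13.54 in the Rnf146 libraries. All 4 differences were negative and small, and their mean had a 95% interval of -0.16 to 0.04 (adjusted p = 0.645).

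The 9 OTU members, of a family whose enzymes often cut 1 type of ubiquitin chain, had 3 mean differences above 0 and 6 below. Their median was -0.012, with pair medians of -0.09, -0.01, -0.06 and -0.06. None was called by limma with the block, and 2 of the 9 had an unadjusted p below 0.05, beside 12.4% of all genes. OTU genes that the symbols do not take, in a list of 8 with *Cyld*, went the other way. That list had 5 means above 0 and 3 below, with a median of 0.055. *Otud1*, a deubiquitinase of immune signaling, stood at 9.77, 9.84, 9.75 and 9.80 in the eGFP libraries and at 9.67, 9.61, 9.69 and 9.64 in the Rnf146 libraries, lower in all 4 pairs. Its difference was -0.14 ± 0.07 (SD, n = 4 pairs, adjusted p = 0.315, and 0.0179 without the block). *Otud3* had pair differences of -0.19, -0.20, -0.01 and -0.08 (adjusted p = 0.386).

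*Otub1*, which also blocks ubiquitin-conjugating enzymes without cutting, had a mean difference of -0.00042 with a 95% interval of -0.10 to 0.10. Its relative *Otub2* had -0.12, -0.47, 0.04 and -0.11, a mean of -0.16 ± 0.21 (SD, n = 4 pairs, adjusted p = 0.439). The value of pair 2 lay below those of the other pairs. *Otud7b*, which trims Lys11-linked chains, had the widest spread of the members, with pair differences of -0.38, 0.14, 0.26 and 0.10, and a mean of 0.03 ± 0.28.

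**Figure D5:**
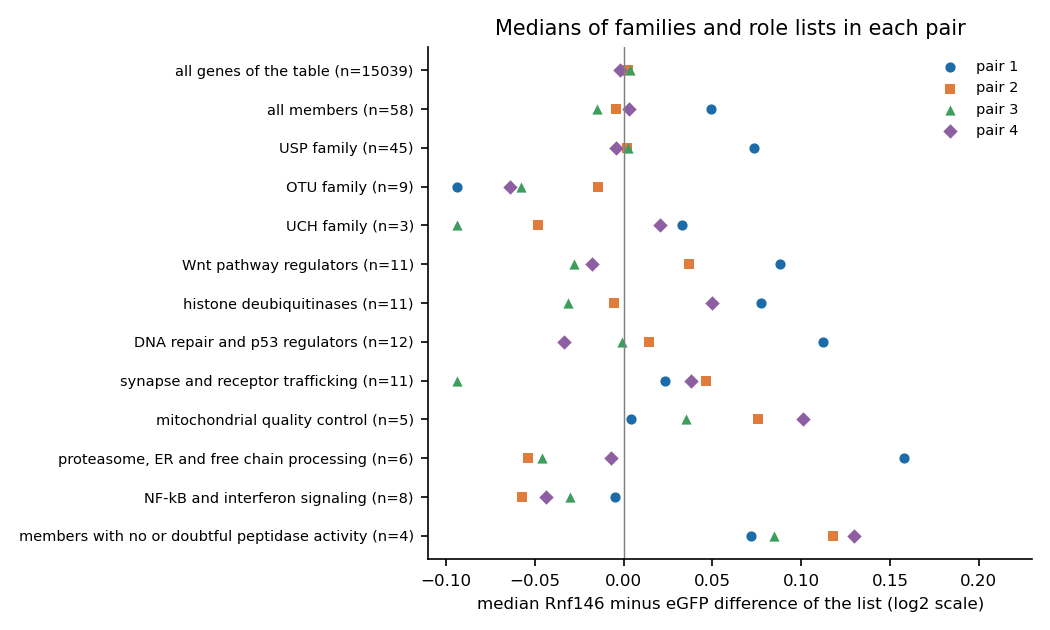
Median Rnf146 minus eGFP difference on the log2 scale (x axis) of all genes, all members, the 3 families and the role lists, with a point for each pair and the number of genes in brackets. Medians of all genes sit at 0. The OTU members and the NF-κB list, which share genes, lie below 0 in all 4 pairs. The mitochondrial list and that of doubtful activity lie above 0, and the other lists have pairs on both sides.

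The remaining role lists held no call other than *Usp29*. Of 12 DNA repair and p53 regulators, 7 had a mean above 0 and 5 below, with a median of 0.029, and *Usp1*, which deubiquitinates FANCD2 and PCNA, had -0.10 ± 0.09. Of 11 histone deubiquitinases, 6 had a mean above 0 and 5 below, with a median of 0.021. Among these *Usp22*, the enzyme of the SAGA complex, had 0.05 ± 0.16, and its relatives *Usp27x* and *Usp51*, both X-linked, had 0.03 and 0.02. The 5 X-linked members together ran from -0.01 to 0.12.

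Of the 5 members linked to mitochondrial quality control, 4 had a mean above 0, with a median of 0.038, and *Usp30*, the outer membrane enzyme that opposes Parkin, was the other, at -0.03 ± 0.03. Of 6 that serve the proteasome, the ER or free chains, 4 were above 0, with a median of 0.022 and *Usp5*, which takes apart free chains, at -0.05. *Usp19*, the ER-anchored enzyme, alternated in sign with 0.27, -0.23, 0.13 and -0.12. Of 8 members of the NF-κB and interferon list, 2 had a mean above 0 and 6 below, with a median of -0.016. Of that list, *Otub1*, *Otub2*, *Otud1*, *Otud4*, *Otud5* and *Otud7b* are also counted among the OTU members. The 9 members in no role list, *Usp24*, *Usp31*, *Usp32*, *Usp37*, *Usp38*, *Usp40*, *Usp43*, *Otud3* and *Otud6b*, had means from -0.12 to 0.10. The highest of them was *Usp43*, and *Usp40* had pair differences of 0.0084, 0.06, 0.11 and 0.15 (adjusted p = 0.524).

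Genes of deubiquitinase families that the symbols do not take, 31 in all, had a median difference of 0.00069 with 16 means above 0 and 15 below. They were listed by family, so not all of them encode active deubiquitinases. *Cyld*, the enzyme for Lys63-linked and linear chains that restrains NF-κB and Wnt signaling, was the only one called, beside 1.25% of all genes. It stood at 12.12, 12.06, 12.14 and 12.18 in the eGFP libraries and at 12.38, 12.44, 12.36 and 12.32 in the Rnf146 libraries, higher in all 4 pairs. The difference was 0.25 ± 0.10 (SD, n = 4 pairs, adjusted p = 0.0922, limma), and the call was lost with any pair left out. Of 17 partner and ubiquitin genes none was called by limma with the block, 4 had an unadjusted p below 0.05, beside 12.4% of all genes, and their median was 0.022.

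Length and base composition of the members were described without a test. Their longest transcripts in GENCODE vM39 had a median of 5325 bases, beside 4365.5 for all genes, and ran from 2060 to 14526 bases, with a median G and C content of 48.8% beside 49.0%. The SD between pairs had a median of 0.095 over the members and of 0.098 over all genes.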

How the data were processed

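RNA sequencing of PFC tissue covered 4 eGFP and 4 Rnf146 libraries (TruSeq stranded mRNA kit). The submitters' processing notes name Cutadapt, Salmon 1.9.0 and DESeq2, with reads quantified against GENCODE vM30 (GRCm39). The deposited values are called normalized counts but are log2 values, centred within same-numbered pairs as deposited. Neither the transformation nor the centring is described in the sources used here. No counts were used, and the depth is unknown.

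Groups and numbers were taken from the labels. Models of limma 3.58.1 (R 4.3.3, with lmFit and a trended eBayes) were fitted with the replicate number as a block, since 4 differences carry the information of 8 centred values. Benjamini-Hochberg adjustment covered 15039 genes. The fit was tested on simulated data with independent genes, which does not cover shifts that many genes share within a pair. The pairing comes from the labels' numbers and from the pair sums, which were equal between pairs for each gene.

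The members and lists were chosen with earlier results of these data known. Genes were named by rule: *Rnf146*, members called, the 6 largest increases and 6 largest decreases among members with 1 direction in all pairs (5 and 4 existed), the Wnt regulators, UCH and Otub genes, *Usp12*, *Usp46*, members of doubtful activity, and called genes of the other lists. *Peg3*, *Zim1* and other members named as examples were chosen after their values were seen. Alternatives were no block, median centring, quantile normalization, a filter on genes of low mean value (8.99 or less), variances without trend or robust, array weights, an adjusted p of 0.05, a marker covariate, a GC and length correction (values for 14590 genes and all 58 members), *Usp6nl* left out, and each pair left out. Gene positions are from GENCODE vM39 (GRCm39) and promoter windows from RefSeq (GRCm38.p6). Protein sequences were not used here.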

Additional observations from a re-analysis of the deposited data

Results flagged for a closer look

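In 4 of 59 genes examined, the members and *Rnf146*, the difference of 1 pair lay far from the other 3, and chance gives about 1 such case in 20. *Usp20* had -0.11 in pair 3, against 0.04 to 0.05 in the others, and *Usp22* had -0.19 in pair 3, against 0.10 to 0.14. *Usp36*, a nucleolar deubiquitinase, had -0.14 in pair 2, against 0.01 to 0.03, and *Usp5* had 0.10 in pair 2, against -0.11 to -0.08. None of these genes was called by limma with the block, and none had an unadjusted p below 0.05.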

How the results depend on the processing

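Without the replicate block, 10 members and 8 of the other deubiquitinases and partners were called in place of 1 and 1. With the marker covariate no member and no other deubiquitinase was called (0 and 0), and the other count was also 0 without trend, with the GC and length correction and at an adjusted p of 0.05. Leaving out a pair gave 0 to 2 members and 0 to 0 others called. It left 9 to 10 members higher in all remaining pairs and 6 to 9 lower. Fewer signs then have to agree, and the share of all genes was not computed for these counts. The doubtful activity list had a median of 0.071 to 0.12 with a pair left out, and of -0.0051 without *Usp6nl*. *Usp29* was called in 11 of 14 alternatives, and *Rnf146* in all 14. Over all genes, 188 calls became 3226 without the block, 3 with the covariate, 355 with array weights and 14 to 421 with a pair left out. The filter on low means left out *Otud3*, *Usp43* and *Usp51*.

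Of the 26 members named by rule, 14 kept their direction in every alternative and 12, none of them called with the block, did not. Members named as examples, such as *Otud7b* and *Usp19*, whose signs also turned, are outside this count and the list that follows. With the covariate the sign turned for *Usp8* (-0.021), *Usp10* (0.13), *Usp25* (0.073), *Usp34* (0.11), *Otub1* (0.036), *Otub2* (0.045) and *Usp53* (0.097). With median centring it turned for *Usp34* (0.00037) and *Otub1* (0.0016), with quantile normalization for *Usp34* (0.00044) and *Uchl3* (-0.0015), with the GC and length correction for *Usp47* (-0.0098), *Otub1* (0.030) and *Uchl3* (-0.013), and with array weights for *Usp39* (0.011). With a pair left out the ranges were -0.19 to 0.0069 for *Usp10*, -0.011 to 0.041 for *Usp20*, -0.054 to 0.0058 for *Usp25*, -0.038 to 0.030 for *Usp34*, -0.014 to 0.043 for *Usp47*, -0.017 to 0.019 for *Otub1*, -0.036 to 0.035 for *Uchl3*, -0.00085 to 0.079 for *Usp46*, -0.044 to 0.021 for *Usp39* and -0.052 to 0.043 for *Usp53*. The causes were not tested. Depth is unknown, so no limit of detection can be given.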
